A study of Homo sapiens with 12 samples.

Results

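A set of 10 genes of the fibronectin and elastic fibre matrix was followed through 4 culture conditions of WI-38, a normal human lung fibroblast line. They are FN1, ELN, FBN1, FBN2, FBLN1, FBLN2, FBLN5, MFAP2, MFAP5 and EMILIN1, named by symbol and linked to the counts by their Entrez identifiers, and all 10 were found among the 25702 genes of the count table. Of these, 8 had a level of at least 10 cpm (counts scaled to library size) in at least 6 of the 12 libraries and were among the 9490 genes tested. The other two, ELN and MFAP5, lay below that level, so their values come from the same model fitted to all 20434 genes with a count.

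RNA was sequenced from flasks given TGF-β at 2 ng/mL and from untreated flasks, 1 day after treatment began (D1 and D1+ TGF-β, passages 2 to 3) and 20 days after (D20 and D20+ TGF-β, passages 5 to 6), in 3 flasks per condition. Untreated flasks received a change of the same low-glucose medium with foetal bovine serum. All D20+ TGF-β flasks were seeded from 1 treated flask and all D20 flasks from 1 untreated flask, with media changed every 2 days, and the 3 RNAs sequenced per condition were chosen by RNA quantity and quality from 5. Flasks were confluent when treatment began, and D1 flasks were not reseeded, whereas D20 flasks were reseeded to be nearly confluent on day 20. Day, passage, reseeding and cell density therefore cannot be told apart. The flasks of a D20 condition share a parent flask, and the p-values measure only the spread between flasks.

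Fibronectin, the product of FN1, is a secreted glycoprotein that cells assemble into fibrils through integrins, and it is the scaffold on which other matrix proteins, the fibrillins among them, are laid down. Elastic fibres consist of a core of cross-linked elastin, encoded by ELN, on a mantle of fibrillin microfibrils. Fibulins, microfibril-associated glycoproteins and EMILIN1 bind to that mantle or to the interface with the core. TGF-β is stored in this matrix through binding proteins that attach to fibrillin and fibronectin, and it is a known inducer of matrix synthesis in lung fibroblasts.

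Library totals ranged from 8674488 to 18286197 counts. Within their conditions, D1 replicate 2 and D20+ TGF-β replicate 3 differed most from the other flasks. The summed level of 9 fibroblast markers was 13462 to 22785 cpm across all flasks, whereas 4 endothelial markers summed to at most 2.58 cpm, with CDH5 at 0. Of the other lists, 5 epithelial markers summed to 29.8 to 51.7 cpm, nearly all of it KRT8 and KRT18, with KRT5 at 0. The 3 leukocyte markers summed to 38.0 to 61.7 cpm, mostly CD68, with PTPRC at most 0.191 cpm, and the 3 smooth muscle markers to 46.5 to 154 cpm, mostly SMTN. The summed level of 4 myofibroblast markers was 1508 to 2261 cpm at D1, 3427 to 3669 at D1+ TGF-β, and on day 20 it was 2244 to 2320 untreated and 1926 to 2161 with TGF-β. ACTA2, which encodes the α smooth muscle actin of myofibroblasts, rose at D1+ TGF-β (log2 fold change 2.07, adjusted p 2.28e-06), as did TAGLN (0.87) and CNN1 (1.21), while MYL9 gave 0.25 (adjusted p 0.0474). In D20+ TGF-β vs D20, CNN1 (-0.44, adjusted p 0.00509) and MYL9 (-0.72, adjusted p 2.30e-05) fell, and ACTA2 gave 0.13 (adjusted p 0.554) and TAGLN 0.06 (adjusted p 0.757). The part of these markers in the values below was not tested.

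Promoter sequence from RefSeq (GRCh38.p14) was matched for 7 of the 10 genes. The 250 bases before the first listed start are shown for FN1 and FBLN5, which rose with TGF-β on both days, and for FBN2, whose difference was called between days and was not called with TGF-β, so that the genes with the contrasting patterns can be read beside each other. All lie on the minus strand, FN1 at chr2:215436069-215436318, FBLN5 at chr14:91947695-91947944 and FBN2 at chr5:128538246-128538495. Capitals mark matches, on either strand, to TGACGTCA (the cyclic AMP response element), CCAAT (the CCAAT box), CAGAC (a SMAD half-site) and TGANTCA (an AP-1 site).
FN1: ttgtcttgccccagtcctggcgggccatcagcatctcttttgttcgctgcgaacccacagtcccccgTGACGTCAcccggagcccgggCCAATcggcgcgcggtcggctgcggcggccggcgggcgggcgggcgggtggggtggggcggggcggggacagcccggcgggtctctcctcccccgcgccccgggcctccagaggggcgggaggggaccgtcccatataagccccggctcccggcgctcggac
FBLN5: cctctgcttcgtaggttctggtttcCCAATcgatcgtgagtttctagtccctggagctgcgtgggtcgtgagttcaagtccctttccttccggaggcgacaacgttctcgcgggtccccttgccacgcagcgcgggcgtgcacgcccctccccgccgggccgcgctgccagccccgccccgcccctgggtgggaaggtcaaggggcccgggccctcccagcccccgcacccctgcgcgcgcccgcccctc
FBN2: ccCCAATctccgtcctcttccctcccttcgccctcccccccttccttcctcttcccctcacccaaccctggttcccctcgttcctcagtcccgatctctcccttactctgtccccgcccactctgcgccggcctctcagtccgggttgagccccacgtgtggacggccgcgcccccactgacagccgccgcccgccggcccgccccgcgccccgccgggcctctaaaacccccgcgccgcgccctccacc
FN1 held 1 TGACGTCA match, found in 1.65% of all 35116 promoter windows of that length, and its CCAAT match began 162 bases before the start. FBLN5 and FBN2 each held 1 CCAAT match, which 32.0% of all windows held. None of the 3 windows printed held CAGAC, found in 38.0% of windows, or TGANTCA, found in 6.57%. The other listed window of FBLN5 held 1 CAGAC and 1 CCAAT match. For MFAP2 the first listed window held 2 TGANTCA matches and the other listed window held 1 CAGAC match. The FBLN1 window held 1 CAGAC match and the first listed window of FBLN2 held 2, with 0 in its other window. For genes with 2 listed starts, the counts do not tell which was used. The FBN1 window held none of these 4 motifs. ELN, MFAP5 and EMILIN1 had no entry.

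**Figure D1:**
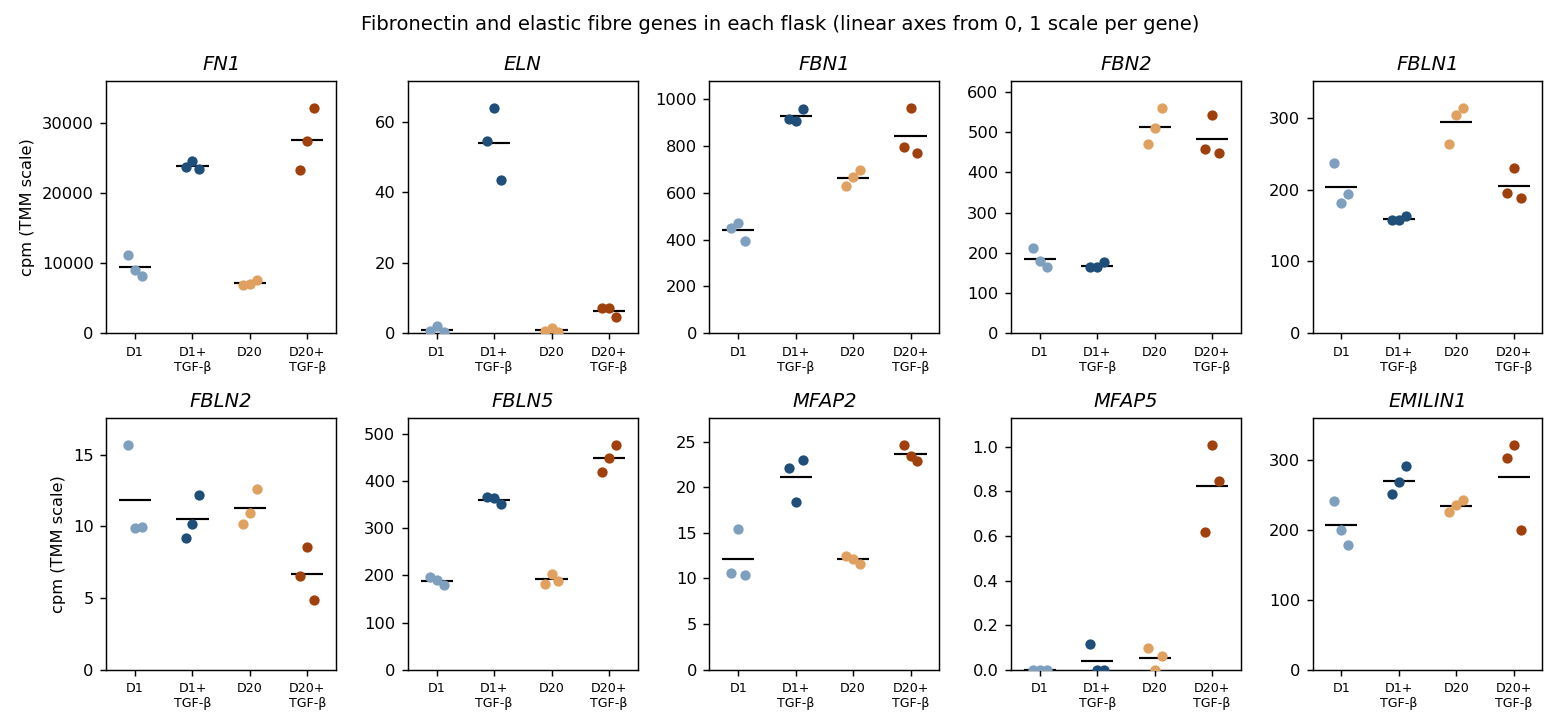
Level of each gene in each flask as cpm on a linear axis from 0 with its own scale per gene, for untreated and TGF-β flasks of each day, with points for the 3 flasks and a line for their mean. FN1, FBLN5 and MFAP2 were higher in every TGF-β flask on both days, ELN reached 43.3 to 63.9 cpm at D1+ TGF-β alone, and FBN2 was higher in every D20 and D20+ TGF-β flask than in any D1 or D1+ TGF-β flask.

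The first question was which of the genes changed within 1 day of TGF-β. Of the 8 tested, 4 rose (FN1, FBN1, FBLN5 and MFAP2) and 0 fell in D1+ TGF-β vs D1, against 13.4% of all genes tested that were called in either direction and 6.89% called higher (edgeR's quasi-likelihood test, Benjamini-Hochberg adjusted p under 0.01). Their median log2 fold change was 0.58, where that of all genes was -0.02. The flasks of both conditions did not overlap for 6 of the 8 genes, against 36.4% of all genes. After 20 days, 3 rose (FN1, FBLN5 and MFAP2) and 1 fell (FBLN1) in D20+ TGF-β vs D20, where 27.5% of all genes were called, 12.8% higher and 14.7% lower. The median was then 0.29 for the 8 genes and 0.01 for all genes, and again 6 of the 8 did not overlap, against 58.3% of all genes. In the fit without a filter ELN rose on both days and MFAP5 rose on day 20, where 8.3% of genes were called on day 1 and 17.1% on day 20. Without D1 replicate 2 or without D20+ TGF-β replicate 3, 5 of the genes were called on day 1 and 6 on day 20. The shares of all genes called in those fits are not given here, so these counts have no background. In bulk RNA, fewer cells of a kind and less RNA per cell cannot be told apart.

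**Figure D2:**
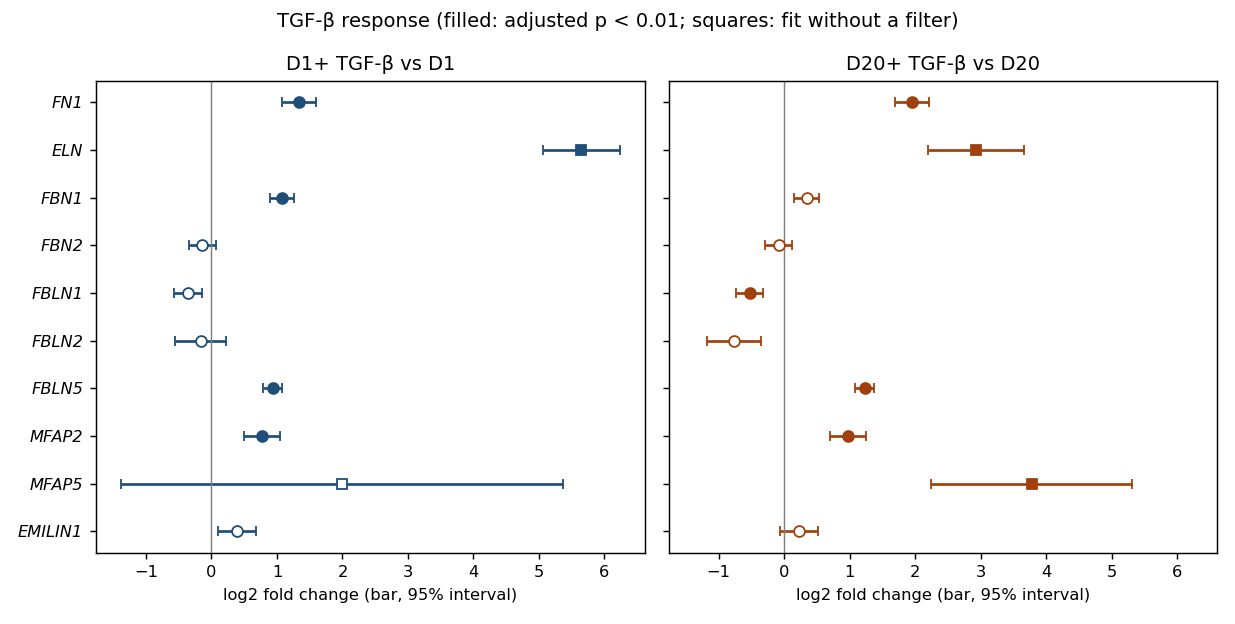
Log2 fold change with TGF-β on day 1 (left) and day 20 (right) for the 10 genes, with bars of the 95% interval, filled symbols for an adjusted p under 0.01 and squares for the 2 genes fitted without a filter. ELN lay at 5.65 on day 1 and 2.93 on day 20, FN1 at 1.34 and 1.95, and FBN2 at -0.14 and -0.09.

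FN1 (2:216225163-216300796, minus strand, GRCh37; all gene positions here are from GENCODE on that build) had the highest level per kilobase of transcript of the 10 in all 4 conditions. Its level was 11230, 8982 and 8183 cpm in the D1 flasks and 23759, 24587 and 23450 in the D1+ TGF-β flasks. At D20 it was 6842, 7032 and 7532 cpm, and at D20+ TGF-β 23270, 27535 and 32178. Every TGF-β flask was higher than every untreated flask, on both days. FN1 transcripts made up a mean of 0.973% of all counts at D1 and 2.36% with TGF-β, and on day 20 a mean of 0.697% and 2.79%. The log2 fold change with TGF-β was 1.34 (SE 0.13, adjusted p 1.05e-05), a 2.53-fold rise, on day 1 and 1.95 (SE 0.13, adjusted p 1.57e-07), a 3.88-fold rise, on day 20. The difference of these responses, 0.62 (SE 0.18), had an adjusted p of 0.0285 and did not pass the threshold, although DESeq2 gave an adjusted p of 0.00364. Between days, FN1 at D20 was below D1 in every flask with a log2 fold change of -0.41 that did not pass (adjusted p 0.0177), while the TGF-β flasks of both days overlapped (0.21, adjusted p 0.194).

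ELN (7:73442119-73484237, plus strand), the gene of elastin, was near the limit of detection without TGF-β. Its counts were 6, 32 and 4 at D1 and 470, 1146 and 372 at D1+ TGF-β. On day 20 they were 6, 20 and 7 in the untreated and 124, 71 and 47 in the TGF-β flasks. As cpm these were 0.507, 2.09 and 0.335, then 54.6, 63.9 and 43.3, then 0.572, 1.49 and 0.421, and last 6.97, 7.17 and 4.42. The D1+ TGF-β flasks stood above all others, the D20+ TGF-β flasks came next without overlap, and the untreated flasks of both days overlapped.

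The ratio of summed ELN counts, scaled by library size, was 52.7 (95% interval 38.8 to 73.3, counting error only) with TGF-β on day 1 and 7.75 (5.37 to 11.5) on day 20. The fitted log2 fold changes were 5.65 (SE 0.30, adjusted p 1.76e-13) and 2.93 (SE 0.37, adjusted p 7.13e-07). ELN was lower at D20+ TGF-β than at D1+ TGF-β with a log2 fold change of -3.16 (SE 0.23, adjusted p 1.71e-10), and D20 vs D1 gave -0.45 (adjusted p 0.556). The response on day 20 minus that on day 1 was -2.72 (SE 0.60, adjusted p 0.00255), where 6.43% of genes were called in that fit. Replicate 2 was the highest untreated flask on each day, and the day 1 response was 6.98 without D1 replicate 2, the day 20 response 3.69 without D20 replicate 2, and the difference -4.07 (adjusted p 2.88e-06) and -1.96 (adjusted p 0.0743) without each of them. For the difference DESeq2 gave an adjusted p of 0.0224, limma-voom 0.0219 and edgeR with filterByExpr 0.0183, so that 4 of 20 alternatives lost the call. A long noncoding gene, ELN-AS1, overlaps ELN on the opposite strand, and since the use of strand in counting is not given in the sources used here, reads of both cannot be told apart.

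The fibrillins form the microfibrils, FBN1 being the main fibrillin of adult tissue and FBN2 best known from development. FBN1 (15:48700510-48937918, minus strand) was at 450, 473 and 395 cpm at D1 and 918, 909 and 957 with TGF-β added. The day 20 flasks had 627, 670 and 699 without and 794, 963 and 770 with TGF-β. Each TGF-β flask was above each untreated flask of its day, and both TGF-β conditions overlapped. FBN1 rose with TGF-β on day 1 by a log2 fold change of 1.08 (SE 0.10, adjusted p 4.77e-06), a 2.11-fold rise. On day 20 the value was 0.34 (SE 0.09, adjusted p 0.0109), which missed the threshold and passed it under 10 of 23 alternatives. The response was smaller on day 20, with a difference of -0.74 (SE 0.13, adjusted p 0.00189), the 1 called difference of responses among the 8 tested genes, where 10.4% of all genes were called and 5.87% lower. FBN1 also rose from D1 to D20 by 0.60 (adjusted p 1.61e-04), and D20+ vs D1+ TGF-β gave -0.14 (adjusted p 0.233).

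FBN2 (5:127593601-127994878, minus strand) was at 211, 179 and 165 cpm in D1 flasks and 164, 163 and 176 in D1+ TGF-β flasks. After 20 days the values were 470, 511 and 560 untreated and 459, 544 and 449 with TGF-β. The treated and untreated flasks of a day overlapped, and the days did not. The log2 fold change with TGF-β was -0.14 (95% interval -0.34 to 0.06, adjusted p 0.347) on day 1 and -0.09 (-0.29 to 0.11, adjusted p 0.527) on day 20. FBN2 rose from D1 to D20 by 1.47 (SE 0.10, adjusted p 2.26e-07), a 2.78-fold rise, and in the TGF-β flasks between days by 1.53 (SE 0.11, adjusted p 5.88e-07). SLC27A6 overlaps FBN2 on the opposite strand, and noncoding genes without a symbol overlap FBN1 and MFAP2.

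Both fibrillins were set against each other within each flask, which needs no scaling between libraries. Per kilobase of transcript, FBN2 was at 44.8% ± 4.71 (SD, n = 3) of FBN1 at D1 and 19.2% ± 0.302 at D1+ TGF-β, and on day 20 at 82.0% ± 2.91 untreated and 61.1% ± 1.04 with TGF-β. No 2 conditions overlapped. Each of the 4 comparisons had an exact two-sided permutation p of 0.1, the smallest that 3 flasks against 3 allow.

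**Figure D3:**
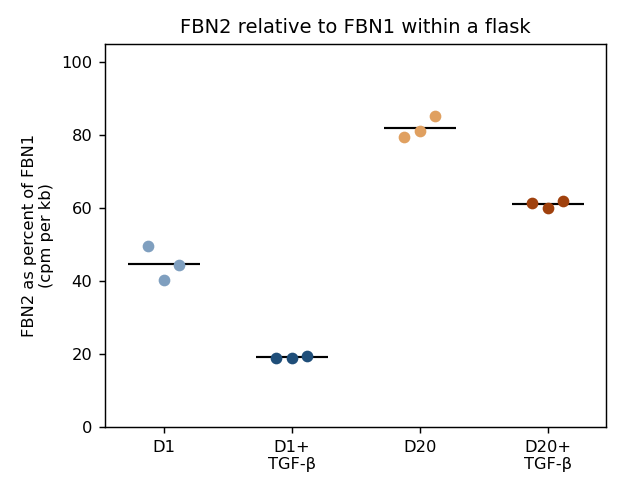
FBN2 as a percent of FBN1, both as cpm per kilobase of transcript, in each flask of the 4 conditions on an axis from 0, with a line for the mean of 3 flasks. The lowest values were those of D1+ TGF-β (mean 19.2%) and the highest those of D20 (mean 82.0%).

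The fibulins are calcium-binding glycoproteins with epidermal growth factor-like repeats. FBLN5 (14:92335755-92414331, minus strand), which binds elastin and integrins and is needed for elastic fibre formation, was at 196, 190 and 180 cpm at D1 and 367, 364 and 351 at D1+ TGF-β. On day 20 it was at 183, 204 and 188 in the untreated and 419, 448 and 477 in the TGF-β flasks. The untreated flasks of both days overlapped, and the TGF-β flasks were higher throughout, those of day 20 above those of day 1. The log2 fold change was 0.94 (SE 0.07, adjusted p 1.06e-06) on day 1 and 1.23 (SE 0.07, adjusted p 4.4e-08) on day 20, with a difference of 0.29 that did not pass (adjusted p 0.0551). D20+ vs D1+ TGF-β gave a rise of 0.31 (SE 0.07, adjusted p 0.00263). That call was lost without any one of the D1+ TGF-β flasks, or without D20+ TGF-β replicate 2 or 3, with adjusted p of 0.0101 to 0.0164, and in the fit without a filter (0.0156).

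FBLN1 (22:45898118-45997015, plus strand), which binds fibronectin and is found with elastic fibres, was at 238, 182 and 195 cpm at D1 and 157, 158 and 163 with TGF-β added. The day 20 flasks had 264, 305 and 314 without and 196, 230 and 189 with TGF-β. It was lower in every TGF-β flask than in the untreated flasks of its day. It fell on day 20 by 0.52 on the log2 scale (SE 0.11, adjusted p 0.00143), and the day 1 value was -0.36 (SE 0.11, adjusted p 0.0253). The day 20 call was lost without D20 replicate 3 (adjusted p 0.0106), and the day 1 value passed without D1 replicate 2 (-0.43, adjusted p 0.0068). FBLN1 rose from D1 to D20 by 0.53 (SE 0.11, adjusted p 0.00102), and the TGF-β flasks gave 0.36 between days (adjusted p 0.0126).

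FBLN2 (3:13590625-13679922, plus strand), another fibulin that binds fibronectin and fibrillin, was scarce, at 15.7, 9.92 and 9.95 cpm in D1 flasks and 9.18, 10.2 and 12.2 in D1+ TGF-β flasks. After 20 days the values were 10.2, 11 and 12.6 untreated and 6.57, 8.58 and 4.89 with TGF-β. The last condition lay below all others and the rest overlapped. D20+ TGF-β vs D20 gave -0.77 (SE 0.21, adjusted p 0.0101), which just missed the threshold, and 8 of 23 alternatives called it. The day 1 value was -0.17 (adjusted p 0.586). Over the 4 conditions together 6 of the 8 genes differed, where 60.3% of all genes did, and the exceptions were FBLN2 (adjusted p 0.0119) and EMILIN1 (adjusted p 0.067).

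The microfibril-associated glycoproteins MFAP2 and MFAP5 bind fibrillin. MFAP2 (1:17300997-17307127, minus strand) was at 10.6, 15.5 and 10.4 cpm at D1 and 22.1, 18.3 and 22.9 at D1+ TGF-β. On day 20 it was at 12.5, 12.2 and 11.6 in the untreated and 24.7, 23.4 and 22.8 in the TGF-β flasks. All TGF-β flasks were above all untreated flasks, and the days overlapped within a treatment. It rose by 0.77 (SE 0.14, adjusted p 0.00153) on day 1 and 0.97 (SE 0.14, adjusted p 1.07e-04) on day 20, a 1.96-fold rise, and the difference of the responses was 0.20 (adjusted p 0.506).

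MFAP5 (12:8789942-8815484, minus strand) had 0 counts in all D1 flasks and 1, 0 and 0 at D1+ TGF-β. On day 20 it had 1, 0 and 1 counts untreated and 11, 10 and 9 with TGF-β. A count of 0 allows up to 3 counts, or 0.203 to 0.258 cpm in the D1 flasks. The reads thus lay almost wholly in D20+ TGF-β, where the level was still 0.824 cpm ± 0.197 (SD, n = 3). The ratio of 30 to 2 summed counts in D20+ TGF-β vs D20 was 15.9 (95% interval 4.02 to 137, counting error only), and the fitted adjusted p was 6.19e-04, against 0.0136 with DESeq2. For D20+ vs D1+ TGF-β, with 30 and 1 counts, the ratio was 27.5 (4.57 to 1121) and the adjusted p 5.45e-04, and 0.0141 without D1+ TGF-β replicate 2. A processed pseudogene, HADHAP2, lies on the opposite strand within MFAP5.

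EMILIN1 (2:27301483-27309271, plus strand), a glycoprotein at the interface of elastin and microfibrils that is also known to restrain TGF-β processing, was at 241, 200 and 179 cpm at D1 and 250, 268 and 290 with TGF-β added. The day 20 flasks had 225, 235 and 242 without and 303, 321 and 200 with TGF-β. The D1 and D1+ TGF-β flasks did not overlap, while D20+ TGF-β replicate 3 was below all D20 flasks. The log2 fold changes were 0.38 (adjusted p 0.0766) on day 1 and 0.23 (adjusted p 0.232) on day 20. Without D20+ TGF-β replicate 3 they were 0.39 (adjusted p 0.00867) and 0.43 (adjusted p 0.00624), and both passed.

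Between days, 2 of the 8 tested genes were called in D20+ TGF-β compared with D1+ TGF-β, FBN2 and FBLN5, both higher, where 34.8% of all genes were called and 17.2% higher. In D20 vs D1, 3 were called, FBN1, FBN2 and FBLN1, all higher, where 36.4% of all genes were called and 18.9% higher. In the fit without a filter 21.2% of genes were called in the former comparison, ELN lower and MFAP5 higher among them, and 22% in the latter, with neither. The D20 vs D1 comparison shares its flasks with the TGF-β comparisons, so these counts are not independent of those above.

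Levels of different genes were compared only per kilobase of transcript. At D1 the order was FN1 at 1128 cpm per kb, FBLN5 at 71.8, FBLN1 at 70.4, EMILIN1 at 53.1, FBN1 at 37.9, FBN2 at 16.9, MFAP2 at 11.6, FBLN2 at 2.75, ELN at 0.288 and MFAP5 at 0. Only the neighbours FBLN5 and FBLN1 overlapped among flasks there. At D1+ TGF-β FN1 was at 2852 cpm per kb, FBN1 moved up to 80.0, behind FBLN5 at 137, and ELN at 15.9 overlapped with MFAP2 at 20.2 and FBN2 at 15.4. At D20 FBLN1 was second at 101 cpm per kb, and EMILIN1 at 60.2 and FBN1 at 57.3 overlapped. At D20+ TGF-β FN1 reached 3297 cpm per kb and FBLN5 171, FBN1, EMILIN1 and FBLN1 overlapped at 72.5, 70.6 and 70.5, and ELN at 1.82 overlapped with FBLN2 at 1.55.

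The genes whose condition means were most like those of FN1, by the root mean square difference of centred log2 cpm over the 4 conditions among 9435 named genes, were ADGRL4 (0.11), PCK2 (0.13), PHGDH (0.14), FST (0.18) and DSP (0.19). Among the matrix genes FBLN5 ranked 43, MFAP2 84, FBN1 332 and EMILIN1 902, while FBLN1 ranked 8638, FBLN2 8677 and FBN2 8993. For ELN, among 9436 genes, they were KCNH1 (0.78), AMIGO2 (0.86), IGFBP3 (0.95), FZD8 (1.25) and SEMA7A (1.32), and FN1 ranked 56. Against ELN, FBLN5 ranked 162, MFAP2 222, FBN1 274 and EMILIN1 1433, while FBLN2 ranked 7464, FBLN1 8744 and FBN2 9076. These are descriptions over 4 means.

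Lists of partner genes, 3 in all, give the setting. Of 30 genes of elastic fibre assembly and microfibril binding, 24 were tested, of which 6 rose and 3 fell with TGF-β on day 1 and 7 rose and 5 fell on day 20. On day 1 13.4% of all genes were called in either direction and 6.89% higher, and on day 20 12.8% higher and 14.7% lower. The list's median was -0.14 on day 1 and -0.23 on day 20, where the medians of all genes were -0.02 and 0.01. LOX, the lysyl oxidase that cross-links elastin, rose from 238 to 577 cpm on day 1 (log2 fold change 1.28, adjusted p 3.87e-07) and from 355 to 590 on day 20 (0.74, adjusted p 2.09e-05). EFEMP2, which encodes fibulin-4, a protein that brings lysyl oxidase to elastin, gave -0.12 (adjusted p 0.482) and -0.39 (adjusted p 0.0122). LTBP2, a fibrillin-binding protein of the latent TGF-β binding family, rose by 1.80 on day 1 and 2.18 on day 20. The hemicentin HMCN1 gave 2.03 and 2.44. Its means were 8.46 cpm at D1 and 7.92 at D20, below the level for testing, and 34.8 and 43.5 with TGF-β. It thus entered the tested genes, and the counts of this list, through the flasks in which it was high. The proteoglycans VCAN and BGN rose by 1.76 and 1.68 on day 1 and by 1.75 and 2.53 on day 20.

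Of 29 genes of fibronectin receptors and fibronectin matrix assembly, 26 were tested, of which 9 rose and 1 fell on day 1 and 3 rose and 13 fell on day 20. Of all genes 13.4% were called in either direction on day 1 and 6.89% higher, and 12.8% were called higher and 14.7% lower on day 20. The list's median was 0.22 on day 1 and -0.33 on day 20, and the difference of responses was called lower for 12 of the 26, with 0 higher, against 5.87% of all genes called lower. ITGB3, the β3 chain of a fibronectin-binding integrin, rose from 16.2 to 61.7 cpm on day 1 (1.91, adjusted p 1.61e-05) and fell from 40.4 to 16.9 on day 20 (-1.26, adjusted p 2.18e-04). The integrin activator FERMT2 (0.92 and -0.45) and FLRT2 (0.43 and -0.34) also rose on day 1 and fell on day 20. Both were named after their values were seen, and the share of all genes with that pattern was not counted. LIMS1, an adaptor of integrin adhesions, rose by 1.56 and 1.02. TNC, the fibronectin-binding glycoprotein tenascin-C, rose by 1.43 on day 1 and gave 0.43 (adjusted p 0.0128) on day 20. TGM2, a transglutaminase that cross-links fibronectin, and ITGA4, the α4 integrin chain, fell on day 20 (-1.75, adjusted p 6.53e-04, and -1.16, adjusted p 8.18e-05) and gave -0.54 (adjusted p 0.224) and -0.38 (adjusted p 0.097) on day 1. On day 20 FN1 was higher with TGF-β in the same flasks in which 13 of the 26 tested partner genes were lower and 3 higher.

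Of 19 proteases that degrade elastin or fibronectin, 12 were tested, of which 3 rose and 2 fell on day 1 and 5 rose and 2 fell on day 20. Of all genes 13.4% were called in either direction on day 1 and 6.89% higher, and 12.8% were called higher and 14.7% lower on day 20. The list's median was -0.01 on day 1 and -0.15 on day 20, where those of all genes were -0.02 and 0.01. FAP, fibroblast activation protein, rose by 1.14 on day 1 and 1.51 on day 20, and MMP2, the gelatinase A gene, by 0.57 and 1.25. CTSK, an elastin-degrading cathepsin, was at 189 cpm in both D1 conditions and rose from 182 to 519 cpm on day 20 (1.51, adjusted p 6.94e-06). PLAT, tissue plasminogen activator, fell on day 1 from 783 to 130 cpm (-2.59, adjusted p 0.00125) and gave -1.40 on day 20 (adjusted p 0.0209).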

How the data were processed

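Per the labels, libraries came from a directional kit, and the submitters' processing notes name FastQC, Trimmomatic, limma and the hg19 build. The deposited counts are unnormalized, per gene and lane, for 48 lane columns. The authors also deposited log2 values per lane for 9412 genes, made with limma's voom and filtered. The authors mapped the trimmed reads with Rsubread. Whether that package also counted them, and with which annotation and strand setting, is not given in the sources used here. Lanes were summed to 12 libraries (2102914 to 4706033 counts per lane). Genes that reached 10 cpm in 6 or more libraries were tested with edgeR 4.0.16 in R 4.3.3, after TMM scaling, by the quasi-likelihood F-test of a model with a mean for each condition, and p-values were adjusted by the Benjamini-Hochberg method across 9490 genes. An adjusted p under 0.01 was called. ELN and MFAP5 were fitted without the filter, with adjustment over 20434 genes. Cpm are on the TMM scale, log2 cpm used a prior count of 2, and levels per kilobase used the canonical transcript. Standard errors were derived from each estimate and its F statistic, and fold change intervals are normal 95% intervals. Intervals of count ratios are exact at 95%, and those and the floor of 3 counts cover counting error only. The common biological coefficient of variation was 9.35%.

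The genes and lists were chosen with earlier results of these data known. All 10 genes are given, and per list and TGF-β comparison up to 3 called genes with the largest change, plus EFEMP2 and LOX. Alternatives were DESeq2 1.42.0, limma-voom (limma 3.58.1) on libraries and on 48 lanes, limma on the deposited log2 values, other scaling and filters, only the libraries compared, an adjusted p of 0.05, leaving out each flask, and a replicate block. The code was tested on simulated data. No 2 libraries of a condition agreed within sampling noise.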

Additional observations from a re-analysis of the deposited data

Results flagged for a closer look

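With 3 flasks per condition no test of single outlying flasks was made. The TGF-β response of day 20 minus that of day 1 was tested by edgeR's quasi-likelihood test. It was called for 1 of the 8 genes tested with the filter, FBN1, where 10.4% of all genes were called. In the fit without a filter, which holds all 10 genes, 3 were called, where 6.43% of all genes were. They were FBN1, ELN and FN1, the last larger on day 20 (0.65, adjusted p 0.00885) and not called with the filter. With the filter the difference for FBN1 was -0.74 on the log2 scale (adjusted p 0.00189). For ELN it was -2.72 in the fit without a filter (adjusted p 0.00255), and 4 of 20 alternatives lost that call (DESeq2, limma-voom, filterByExpr and the fit without D20 replicate 2). Among the partner genes named by rule, the response was smaller on day 20 for LOX (-0.54, adjusted p 0.00704) and TNC (-0.999, adjusted p 0.00155). It was larger on day 20 for BGN (0.84, adjusted p 0.00311), MMP2 (0.68, adjusted p 0.00731) and CTSK (1.52, adjusted p 4.58e-04). For ITGB3 it turned from a rise to a fall, with a difference of -3.17 (adjusted p 9.78e-06). In each of these, day, passage, reseeding and cell density cannot be told apart.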

How the results depend on the processing

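Of the matrix genes' results, 1024 alternative values kept their direction and side of the threshold, 50 passed it newly, 13 lost it and 27 changed sign, all of the latter in results that did not pass. Counts of called genes were 4 and 4 with TGF-β on days 1 and 20, and 4 to 5 and 3 to 6 with flasks left out. For these ranges the shares of all genes called are not given here. On day 1 FBLN1 and EMILIN1 also passed with the 48 lanes as samples. FBLN1 did so too without a composition factor (adjusted p 0.00744) and at an adjusted p of 0.05. On day 20 FBN1 and FBLN2 also passed with DESeq2 (adjusted p 0.00144 and 0.00243) and at an adjusted p of 0.05. The D20 vs D1 count was 3, or 3 to 4 with flasks left out, again without the shares of all genes for that range. FN1 also passed there with DESeq2 (adjusted p 0.00276). In D20+ TGF-β vs D20 the count was 7 with the 48 lanes as samples, which treats repeats of 1 RNA as separate samples. In that setting 54.8% of all genes were called. It was 8 without a filter, where all 10 genes are fitted and 17.1% of all genes were called. In D20+ TGF-β compared with D1+ TGF-β the count of 2 became 4 with DESeq2 (37.3% of all genes called) and without a filter (21.2%). It was also 4 at an adjusted p of 0.05 (49.9%) and with only the 6 libraries compared (39.4%). With 48 lanes it was 6 (60.8%), and it was 1 to 4 when flasks were left out. It was 1 without any single D1+ TGF-β flask (23.8% to 28.1% of all genes called) or without D20+ TGF-β replicate 2 (25.0%). Without D1 replicate 1 it was 4 (38.5%). For the difference of responses the count of 1 became 2 with DESeq2 (14.4% of all genes called) and at an adjusted p of 0.05 (21.5%). It was 3 without a filter (6.43%) and 4 with 48 lanes (39.3%). The cause of these moves was otherwise not tested. Scaling without a composition factor moved the median difference of responses over all genes from 0.02 to 0.12.

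Sign changes, on the log2 scale, were as follows. EMILIN1 in D20+ vs D1+ TGF-β was -0.0032 with limma-voom, -0.018 without a filter, -0.017 with filterByExpr and -0.10 to 0.20 with flasks left out. FBLN5 in D20 vs D1 was -0.053 without a composition factor, -0.055 without a filter, -0.018 with filterByExpr, -0.0085 with 6 libraries and -0.040 to 0.060 with flasks left out. ELN in D20 vs D1 was 0.028 with 48 lanes and -1.20 to 0.89 with flasks left out, and MFAP2 there was 0.0047 with the deposited log2 values and -0.12 to 0.20. With flasks left out, FBLN2 was -0.28 to 0.087 with TGF-β on day 1 and -0.18 to 0.19 in D20 vs D1. The difference of responses was then -0.047 to 0.13 for FBN2, -0.014 to 0.31 for MFAP2 and -0.28 to 0.040 for EMILIN1.

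Replicate numbers did not pair the flasks, with correlations of deviations from the condition means of -0.22 to 0.32 and 5 of 12 libraries nearest to their own number. With the replicate block the counts of called genes were 4, 4, 2, 3 and 1 in the 5 comparisons and 6 over the 4 conditions, and no call changed. The shares of all genes called under that model are not given here. Genes near 0 counts, MFAP5 and untreated ELN, are limited by depth.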

Other observations

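A pair of partner genes below the filter reached at least 10 cpm in some flasks. They were chosen after their values were seen, for being high in those flasks, so their values are given with no test. ITGA8, the integrin α8 chain that pairs with β1 to bind fibronectin, was at 12.1, 25.9 and 8.11 cpm at D1 and 3.48, 4.07 and 3.96 with TGF-β added. The day 20 flasks had 104, 120 and 118 without and 4.04, 5.35 and 2.44 with TGF-β. CTSS, an elastin-degrading cathepsin, was at 4.81, 5.42 and 4.85 cpm at D1 and 6.97, 6.30 and 4.08 with TGF-β added. On day 20 it was at 4.48, 6.11 and 6.01 in the untreated and 31.6, 23.1 and 16.3 in the TGF-β flasks.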
